A study of Mus musculus with 6 samples.

Results

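Skipped microexons of at most 30 nt were read from the table of skipped exons made from mouse small-intestinal crypt cells. They were chosen by length and by coverage: including and skipping reads had to average 20 or more for each library, and 565 of 31346 unique skipped exons with that coverage met the length limit. The 565 microexons lie in 489 genes. A further 137 exons of this length were listed with fewer reads and were not used as members. The rule does not use the change between libraries, but it was set with earlier results of these data known.

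The series compares messenger RNA of intestinal epithelial cells between WT and PTBP1_KO mice, with 3 libraries in each group. WT mice were Ptbp1f/f, carrying floxed alleles and no Cre, and PTBP1_KO mice were Ptbp1f/f;Vil-creER+/-, in which villin regulatory sequence drives a tamoxifen-inducible Cre in intestinal epithelium. All were C57BL/6, 60 days old and given tamoxifen at 100 mg/kg on 2 days, and crypt cells were collected 20 h after the last injection. The labels do not say whether the libraries of a group came from separate mice, so the authors' p-values measure the spread between these libraries, which may be technical.

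Microexons are exons so short that each adds a few amino acids, often on the surface of a protein. Many are included in neurons and skipped elsewhere, and neuronal inclusion depends on the splicing factor Srrm4. PTBP1 binds pyrimidine-rich RNA and represses many neuronal exons in cells that are not neurons.

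The splicing table sets 3 libraries, called the first set here, against 3 others, the second set. Which genotype a set holds is not in its headers. Inclusion levels, the percentage of transcripts estimated to contain the exon, are therefore given by set, with no direction by genotype. An exon was called when the authors' FDR was below 0.05, their inclusion level difference was at least 10 percentage points and the mean was at least 20 reads. Differences are positive where the first set had the higher inclusion. Together the microexons were covered by between 464451 and 575209 reads per library, and the median microexon by 173 reads per library. Reads were counted without molecular identifiers, so intervals and limits from read counts cover counting error only.

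By these thresholds 52 of the 565 microexons were called, which is 9.20%, in 50 genes. Over skipped exons of any length the share called was 1.91%. Inclusion was higher in the first set for 49 of the 52 and higher in the second set for 3. Over exons of any length, 1.24% were called with higher inclusion in the first set and 0.667% with higher inclusion in the second set. The positive share was 94.2% among called microexons (exact binomial interval, 84.1% to 98.8%, at 95% confidence) and 62.3% among the 547 called longer exons. All exons were measured in the same 6 libraries, and exons of 1 gene are not independent, so the interval is a description.

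Called exons are printed below with 15 bases of the neighbouring exons, in the transcript's direction, with the microexon in capitals. They were picked to show the shortest lengths, the largest differences with many reads, 2 pairs from related genes, exons of genes known for neuronal microexons, and, with Dnm2 and Myh14, exons that were higher in the second set. Sequences come from GENCODE M21 transcripts, and positions are 1-based on mm10. The exons lie at chr2:32323179-32323190 (Dnm1, minus strand), chr9:21490658-21490669 (Dnm2, plus), chr11:70609408-70609431 (Mink1, plus), chr3:28625199-28625222 (Tnik, plus), chr1:40008331-40008339 (Map4k4, plus), chr15:73211987-73211995 (Ptk2, minus), chr4:156169546-156169557 (Agrn, minus), chrX:73867022-73867036 (L1cam, minus), chr2:84612532-84612549 (Ctnnd1, minus), chr7:99597036-99597059 (Arrb1, plus), chr9:45947541-45947552 (Sidt2, minus), chr10:60297537-60297545 (Psap, plus), chr16:10572918-10572923 (Clec16a, plus), chr7:45808730-45808732 (Cyth2, minus) and chr7:44657417-44657440 (Myh14, minus). All 15 are coding in GENCODE M21.
Dnm1: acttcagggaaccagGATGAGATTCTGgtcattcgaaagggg
Dnm2: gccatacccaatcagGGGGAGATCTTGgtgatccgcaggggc
Mink1: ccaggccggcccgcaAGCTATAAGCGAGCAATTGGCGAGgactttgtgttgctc
Tnik: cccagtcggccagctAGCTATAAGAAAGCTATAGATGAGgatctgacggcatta
Map4k4: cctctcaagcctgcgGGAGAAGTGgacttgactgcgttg
Ptk2: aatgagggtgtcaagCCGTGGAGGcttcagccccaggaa
Agrn: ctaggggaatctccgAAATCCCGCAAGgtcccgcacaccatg
L1cam: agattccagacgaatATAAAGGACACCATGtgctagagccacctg
Ctnnd1: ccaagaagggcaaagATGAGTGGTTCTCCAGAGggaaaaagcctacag
Arrb1: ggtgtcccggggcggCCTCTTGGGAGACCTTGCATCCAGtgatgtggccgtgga
Sidt2: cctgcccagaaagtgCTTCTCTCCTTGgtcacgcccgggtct
Psap: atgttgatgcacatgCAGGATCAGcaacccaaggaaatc
Clec16a: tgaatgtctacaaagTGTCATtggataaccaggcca
Cyth2: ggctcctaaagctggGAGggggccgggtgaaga
Myh14: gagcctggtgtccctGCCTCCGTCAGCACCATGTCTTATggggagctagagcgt

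The 12 nt exons of Dnm1 and Dnm2 were identical at 8 of 12 bases (66.7%), and the 24 nt exons of Mink1 and Tnik at 18 of 24 (75.0%). Each of these exons starts at the first base of a codon and has a length divisible by 3, so it adds whole codons to the reading frame.

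**Figure D1:**
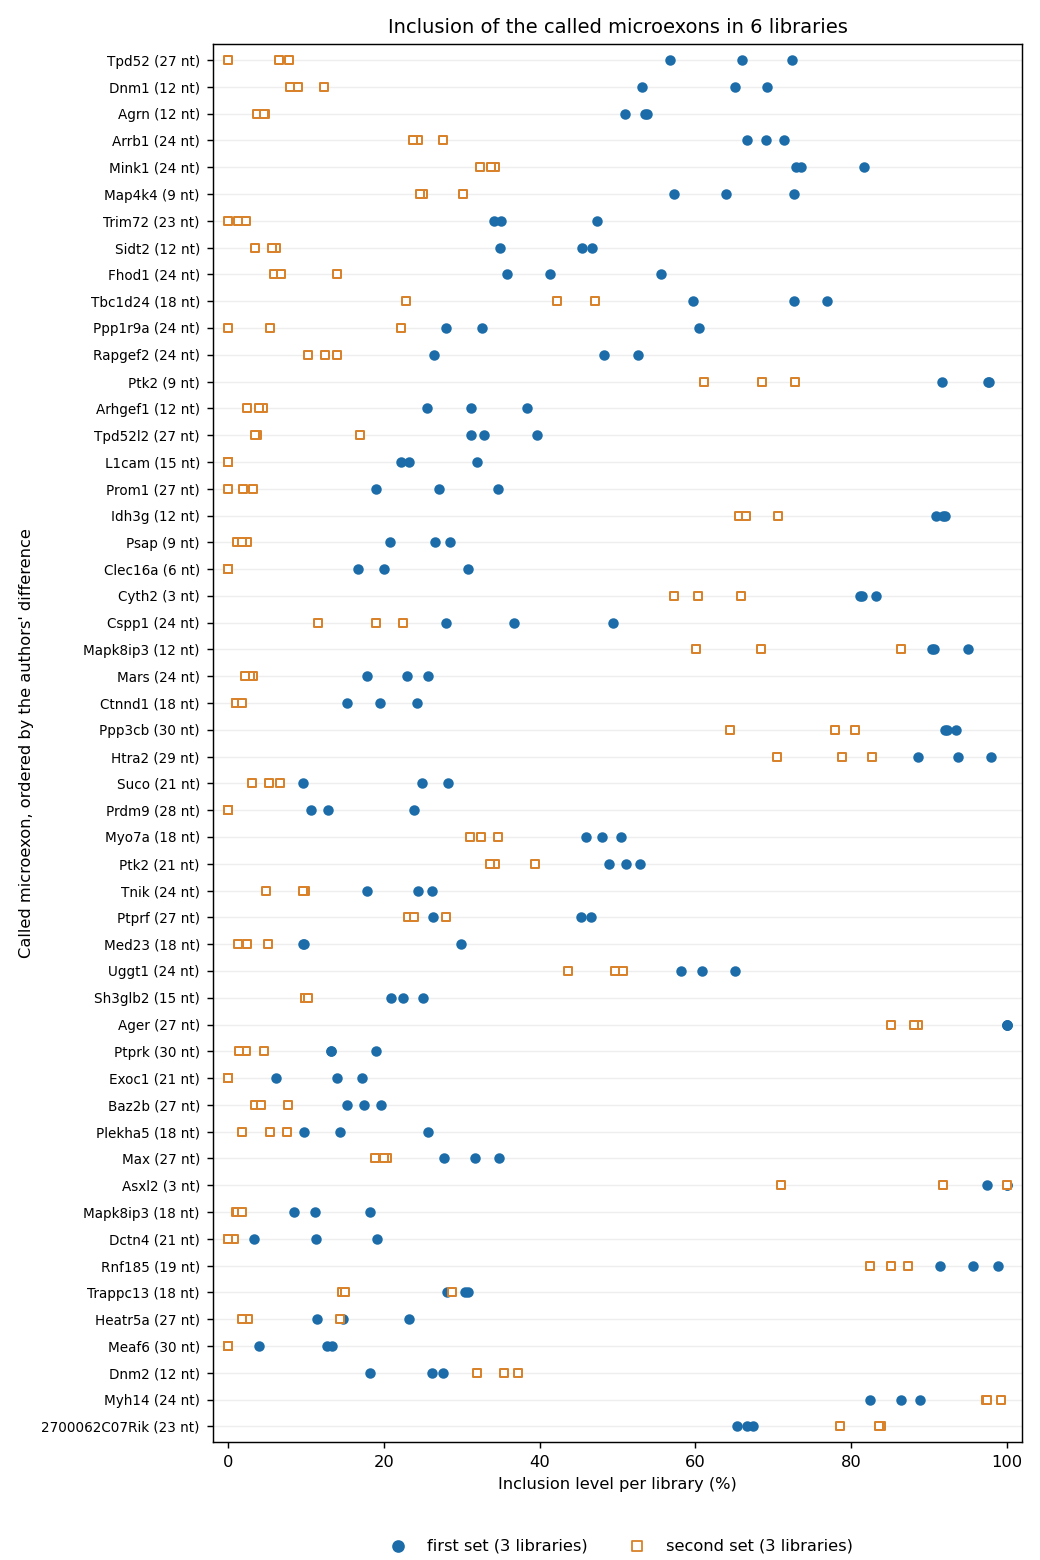
Inclusion level in percent (horizontal axis) of each of the 52 called microexons (rows, ordered by the authors' difference) in the 3 libraries of the first set (filled circles) and the 3 of the second set (open squares). Circles lie to the right of all squares in 45 rows and to the left of all squares in the 3 rows at the bottom, and both symbols overlap in 4 rows.

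The host genes were grouped by role after the calls were seen, as a way to order the values and not as a test. Genes of membrane traffic held 14 called exons, 13 of them higher in the first set. Dynamins are the GTPases that cut endocytic vesicles from the membrane, and Dnm1 is the member most used at synapses. The 12 nt Dnm1 exon was included at 65.1%, 53.2% and 69.2% in the first set and at 8.99%, 12.3% and 7.88% in the second set, with 1192.5 reads per library. The authors' deposited table gave a difference of 52.8 points and an FDR listed as 0. Every library of the first set stood at least 40.9 points above the second set.

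Dnm2 encodes the dynamin found in most tissues, and its 12 nt exon went the other way. It was included at 18.2%, 26.2% and 27.6% in the first set and at 35.4%, 37.3% and 32.0% in the second set, with 883 reads per library. In the authors' deposited table the difference was -10.9 points with an FDR of 0.00018. The sets did not overlap, but they were 4.44 points apart at their closest. Without library 1 of the first set, or without library 2 of the second, the Dnm2 difference was below 10 points.

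Tpd52, which encodes tumour protein D52 of vesicle traffic, had the largest difference among the microexons. Its 27 nt exon was included at 56.7%, 66.0% and 72.5% in the first set and at 0%, 6.56% and 7.77% in the second set. This rests on 22.8 reads per library and 13 in the lowest, and the library at 0% had 0 inclusion reads of 13, which allows up to 23.1% of reads. The authors' deposited table listed 60.2 points for this exon, with an FDR of 2.738e-13. The exon had 3 entries there that met the read minimum, and only the 1 given here was called. The related gene Tpd52l2 had a 27 nt exon at 31.2%, 32.8% and 39.7% in the first set and 3.69%, 16.9% and 3.39% in the second set. That gave 26.6 points in the authors' deposited table, from 102.8 reads per library, in 1 called entry of 2.

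Arrb1 encodes beta-arrestin, an adaptor that takes receptors into clathrin-coated pits. Its 24 nt exon was included at 69.0%, 66.7% and 71.4% in the first set and at 24.3%, 23.7% and 27.5% in the second set, a spread of under 5 points within each set. The difference in the authors' deposited table was 43.9 points. Sidt2, a lysosomal membrane protein, had a 12 nt exon at 46.7%, 34.9% and 45.4% in the first set and 3.49%, 6.12% and 5.69% in the second set, which is 37.2 points in the authors' deposited table.

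Psap encodes prosaposin, the precursor of the lysosomal saposins, and its 9 nt exon was the best covered of the called microexons, with 2437 reads per library. Inclusion was 26.5%, 20.8% and 28.5% in the first set and 2.46%, 1.15% and 1.75% in the second set. The authors' deposited table gave 23.5 points with an FDR listed as 0. In Clec16a, a gene of endosomal traffic and autophagy, a 6 nt exon was included at 20.0%, 30.8% and 16.7% in the first set and had 0 inclusion reads of 378 in the second set, which allows up to 0.794% of reads. The authors' deposited table gave 22.5 points for it. Cyth2 encodes cytohesin, an exchange factor for ARF GTPases, and it held the shortest of the called exons in this group. The 3 nt exon was included at 81.2%, 81.4% and 83.2% in the first set and at 57.2%, 60.4% and 65.9% in the second set, with 676 reads per library and 20.7 points in the authors' deposited table. Cytohesin transcripts without the 3 bases were therefore the minority in all 6 libraries.

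In Tbc1d24, a TBC domain gene of synaptic vesicle traffic, an 18 nt exon was included at 59.7%, 72.7% and 76.9% in the first set and 22.9%, 47.1% and 42.3% in the second set. It had 24.7 reads per library, 10 in the lowest, and 32.3 points in the authors' deposited table. The other called exons of this group, in Exoc1 of the exocyst, Sh3glb2, Trappc13 and Heatr5a, had differences of 10.2 to 12.8 points in the authors' deposited table. Exoc1 had 0 inclusion reads of 297 in the second set, which allows up to 1.01% of reads, against 6.13% to 17.2% inclusion in the first set. For Trappc13 and Heatr5a the libraries of the sets overlapped.

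Kinases, phosphatases and their scaffolds, counted together with the Rap exchange factor gene Rapgef2, held 10 called exons in 8 genes, all higher in the first set, with a median difference of 24.2 points. Mink1, Tnik and Map4k4 are related Ste20-type kinases that act on the JNK pathway and the cytoskeleton, and each had a called microexon. The 24 nt Mink1 exon was included at 73.6%, 73.0% and 81.7% in the first set and at 34.3%, 33.7% and 32.3% in the second set, with 345 reads per library. For its counterpart in Tnik the levels were 17.8%, 26.2% and 24.4% against 9.92%, 4.89% and 9.61%. The authors' deposited table gave 42.6 points for Mink1 and 14.7 points for Tnik, with FDRs of 0 and 1.711e-06. Tnik thus lay under 30% in all 6 libraries, while Mink1 lay above 70% in the first set.

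The Map4k4 exon has 9 nt and was included at 57.2%, 63.9% and 72.7% in the first set and at 25.1%, 30.2% and 24.6% in the second set. Its difference was 38.0 points in the authors' deposited table, from 141 reads per library. Mapk8ip3 encodes a scaffold that links JNK kinases to kinesin transport, and it held 2 called exons. The 12 nt exon was included at 95%, 90.4% and 90.6% in the first set and 68.5%, 86.4% and 60.1% in the second set. A separate 18 nt exon lay at 8.47%, 11.2% and 18.2% in the first set and 1.05%, 1.19% and 1.76% in the second set. In the authors' deposited table they differed by 20.4 and 11.3 points. One was therefore mostly included and the other mostly skipped, and both were higher in the first set.

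Ptk2 encodes focal adhesion kinase, the tyrosine kinase at integrin contacts, and it had 3 member exons. The 9 nt exon near the end of the coding sequence was included at 97.5%, 91.7% and 97.8% in the first set and at 68.6%, 61.2% and 72.8% in the second set, with 273 reads per library. For the 21 nt exon, annotated in a non-coding transcript, the levels were 52.9%, 48.9% and 51.1% against 39.4%, 34.3% and 33.6%. These were 28.1 and 15.2 points in the authors' deposited table. The 18 nt exon lay at 4.14%, 4.39% and 5.03% in the first set and had no inclusion read in the second set. At 4.5 points in the authors' deposited table, with an FDR of 0.00099, it was under the minimum difference.

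Ppp3cb encodes a catalytic subunit of calcineurin, the calcium-dependent phosphatase. Its 30 nt exon was included at 93.5%, 92.1% and 92.4% in the first set and 77.9%, 80.5% and 64.5% in the second set, which is 18.3 points in the authors' deposited table. Ppp1r9a encodes neurabin, which brings protein phosphatase to actin. The 24 nt Ppp1r9a exon varied widely, at 28%, 60.5% and 32.6% in the first set and 22.2%, 0% and 5.41% in the second set, on 25.2 reads per library. Its library at 0% had 0 inclusion reads of 12, which allows up to 25.0% of reads. Rapgef2, an exchange factor for Rap GTPases, had a 24 nt exon at 26.4%, 52.7% and 48.3% against 12.5%, 14% and 10.3%, on 24.3 reads per library. These exons differed by 31.2 and 30.2 points in the authors' deposited table.

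Adhesion, matrix and surface genes held 8 called exons, all higher in the first set, with a median of 16.4 points. Agrin is a heparan sulphate proteoglycan of basement membranes, and the 12 nt Agrn exon lies in the site where neuronal agrin gains heparin binding. It was included at 53.7%, 51% and 53.6% in the first set and at 3.64%, 4.68% and 4.61% in the second set, with 253 reads per library. The authors' deposited table gave 48.5 points with an FDR listed as 0. The libraries of each set lay within 3 points of each other.

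L1cam encodes a cell adhesion molecule of axons that also occurs in epithelia. Its 15 nt exon was included at 23.2%, 32.0% and 22.2% in the first set and had 0 inclusion reads of 161 in the second set, which allows up to 1.86% of reads. The difference was 25.8 points in the authors' deposited table. A second L1cam member, of 12 nt, lay at 1.82% to 2.16% in the first set and 0.31% to 0.71% in the second set and was not called. The 2 microexons of this gene were thus used at very different levels in the first set.

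Ctnnd1 encodes p120 catenin, which holds cadherins at the cell surface. Its 18 nt exon was included at 19.5%, 15.3% and 24.2% in the first set and 0.99%, 1.05% and 1.77% in the second set, with 404 reads per library and 18.4 points in the authors' deposited table. Prom1 encodes prominin, a membrane protein of microvilli that is also used as a stem cell marker. Its 27 nt exon lay at 34.6%, 19.0% and 27% in the first set and 3.15%, 0% and 1.95% in the second set, 25.2 points in the authors' deposited table. Both exons were therefore close to absent from the second set.

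Ptprf and Ptprk encode receptor tyrosine phosphatases of cell contacts. The 30 nt Ptprk exon was included at 13.2%, 13.2% and 19.0% in the first set and 2.33%, 1.37% and 4.57% in the second set. The 27 nt Ptprf exon lay at 26.3%, 45.3% and 46.6% against 23.1%, 27.9% and 23.8%, and here the sets overlapped. They differed by 12.4 and 14.5 points in the authors' deposited table, the latter with an FDR of 0.03111. The other 2 in this group were Plekha5 (11.7 points) and Ager (12.7 points in the authors' deposited table). Ager, a receptor for glycated proteins, was at 100.0% in the first set and 85.1% to 88.6% in the second, on 27.7 reads per library and 9 in the lowest.

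Cytoskeletal genes held 6 called exons, of which Myh14 was higher in the second set. Fhod1 encodes a formin of actin stress fibres. Its 24 nt exon, in a transcript annotated as non-coding, was included at 55.5%, 35.8% and 41.4% in the first set and 5.93%, 6.79% and 14% in the second set. Arhgef1, a guanine nucleotide exchange factor, had a 12 nt exon at 31.3%, 25.5% and 38.4% against 4.46%, 2.38% and 3.97%. Those exons differed by 35.3 and 28.1 points in the authors' deposited table.

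Myo7a, a myosin of microvilli and stereocilia, had an 18 nt exon at 46.0%, 48.1% and 50.5% in the first set and 32.5%, 34.6% and 31.1% in the second set. Cspp1, of centrosomes and cilia, had a 24 nt exon at 27.9%, 36.7% and 49.5% against 18.9%, 11.5% and 22.5%. Their differences in the authors' deposited table were 15.5 points for Myo7a and 20.4 points for Cspp1. Myh14 encodes a heavy chain of nonmuscle myosin II. Its 24 nt exon was included at 86.4%, 88.9% and 82.4% in the first set and at 99.2%, 97.4% and 97.5% in the second set, with 754 reads per library. The authors' deposited table listed -12.1 points and an FDR of 0. The last of the 6, a 21 nt exon of the dynactin gene Dctn4, had 0.77%, 0% and 0% in the second set and 3.29% to 19.1% in the first.

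Genes of transcription and chromatin held 6 called exons, of at most 15.8 points in the authors' deposited table, all higher in the first set. Max, the partner of Myc, had a 27 nt exon at 27.7%, 31.7% and 34.8% in the first set and 18.9%, 20.4% and 20.0% in the second set, with 967 reads per library. Prdm9, a histone methyltransferase known from meiosis, had a 28 nt untranslated exon at 23.9%, 10.7% and 12.9% in the first set. These levels rest on 3 inclusion reads in each library, of 11, 24 and 20 reads, and the exon had 21.8 reads per library. No inclusion read of 76 was found in the second set, which allows up to 3.95% of reads. Meaf6, of histone acetyltransferase complexes, lay at the minimum difference of 10 points in the authors' deposited table. Baz2b and Med23, of a chromatin reader and the Mediator complex, had 12.4 and 13.5 points there. Of the 3 nt Asxl2 exon, 97.4% to 100.0% of transcripts in the first set and 71.0% to 100.0% in the second carried it, so the sets overlapped.

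Metabolism, translation and protein quality accounted for another 6 called exons, all higher in the first set. Idh3g encodes a subunit of the mitochondrial isocitrate dehydrogenase. Its 12 nt exon was included at 91.8%, 91.0% and 92.1% in the first set and 65.6%, 70.6% and 66.5% in the second set, with 1136 reads per library and 24 points in the authors' deposited table. Mars, the methionyl-tRNA synthetase, had a 24 nt exon at 25.6%, 17.8% and 23.0% against 3.20%, 2.82% and 2.2%, which is 19.4 points in the authors' deposited table. Idh3g was mostly included and Mars mostly skipped in all 6 libraries.

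Htra2, a mitochondrial protease, had a 29 nt exon at 98.0%, 88.6% and 93.7% against 82.7%, 70.5% and 78.8%, in a transcript annotated for nonsense-mediated decay. Suco, of the endoplasmic reticulum, had a 21 nt exon at 9.62%, 24.9% and 28.2% against 6.61%, 3.02% and 5.25%. The authors' deposited table gave 16.1 points for Htra2 and 16 points for Suco. Uggt1, which checks glycoprotein folding, and Rnf185, a ubiquitin ligase, differed by 13.4 and 10.4 points in the authors' deposited table.

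The remaining called exons, both of 23 nt, lie in Trim72 and 2700062C07Rik. Trim72, known for membrane repair in muscle, had its exon at 47.3%, 34.1% and 35% in the first set and 2.31%, 0% and 1.27% in the second set, 37.6 points in the authors' deposited table. The Trim72 library at 0% had 0 inclusion reads of 21, which allows up to 14.3% of reads. The 2700062C07Rik exon was included at 67.5%, 66.6% and 65.4% in the first set and 78.6%, 83.9% and 83.5% in the second set. At -15.5 points in the authors' deposited table it was the largest of the 3 negative differences. The exons of Dnm2, Myh14 and Myo7a, and those above with a difference of 13.5 points or less in genes off the list of textbook microexon genes described below, were named after their values were seen.

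Among the 52 called exons, the libraries of the sets did not overlap for 48, that is 8.50% of the 565 microexons. Of exons of any length, 1.6% were called without overlap. The 4 called exons with overlap were those of Ptprf, Asxl2, Trappc13 and Heatr5a. The median absolute difference was 17.2 points, and the median spread between the 3 libraries of a set was 9.13 points in the first set and 4.08 points in the second. The authors' difference was at least 20 points for 23 exons and at least 40 points for 5. The gap between the closest libraries of the sets was smaller, as in the 12 nt Mapk8ip3 exon, with a difference of 20.4 points and a gap of 4.08 points.

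Called exons were mostly minor forms. All 6 libraries lay under 50% for 28 of the 52 and above 50% for 11, and 7 lay above 50% throughout the first set and under 50% throughout the second. In 15 the second set stayed under 5% in all 3 libraries, and in 5 of these, L1cam, Clec16a, Prdm9, Exoc1 and Meaf6, it had no inclusion read. No called exon was under 5% throughout the first set, which the minimum difference allowed only for the 3 exons higher in the second set. Over all 6 libraries pooled, the median inclusion of called microexons was 26.9%, against 68.0% for called longer exons.

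**Figure D2:**
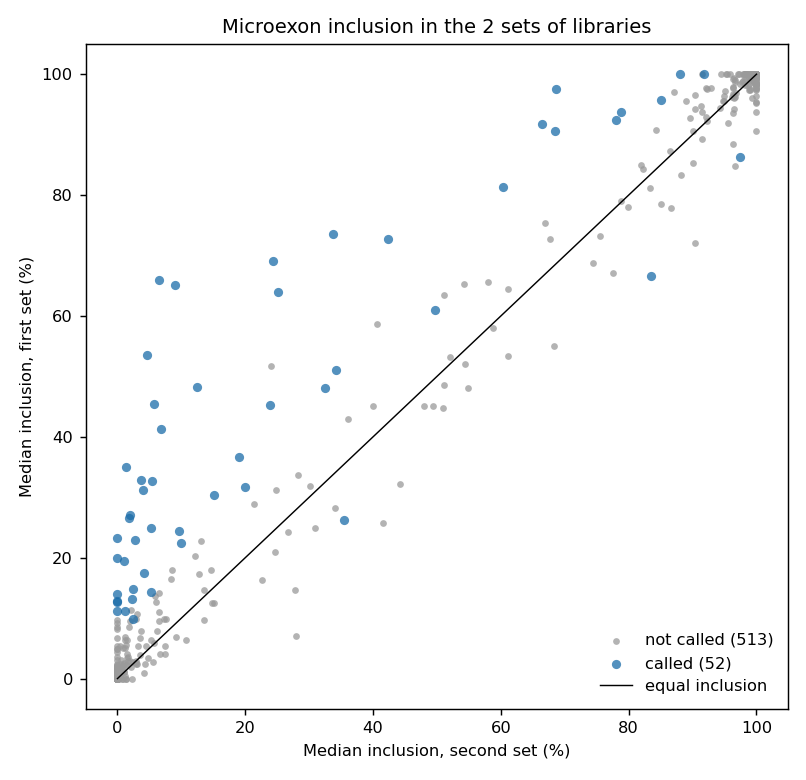
Median inclusion level in percent of the 3 libraries of the first set (vertical axis) against that of the second set (horizontal axis) for all 565 microexons, with the 52 called ones in blue and the 513 others in grey. The line marks equal inclusion, and 49 of the called exons lie above it.

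Most of the 513 microexons that were not called were near one end of the scale. Pooled inclusion was under 5% for 136 and over 95% for 277, which left 100 in between. Of all 151 microexons between 5% and 95%, 51 were called, which is 33.8%. The share was 12.2% for exons of any length between these limits. Pooled inclusion comes from the same reads as the difference, so this share is not independent of the calls.

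The microexons with most reads belonged to abundant genes and differed by at most 0.1 points between the sets in the authors' deposited table. A 30 nt exon of Lgals4, a galectin, with 46266 reads per library, a 30 nt exon of Dmbt1, a mucin-like scavenger receptor, a 21 nt exon of Uqcrh, of respiratory complex III, and a 29 nt exon of B2m, the light chain of MHC class I, were included at 99.9% or more in every library but 1. That library, in the second set, had the Dmbt1 exon at 99.87%. A 15 nt exon of Rps12, a ribosomal protein, was included in 0.04% to 0.10% of transcripts. All 5 had an FDR of 1 in the authors' deposited table.

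A further 31 microexons passed the FDR with a difference under 10 points, 29 of them higher in the first set, judged by the event with most reads. The matching share over exons of any length is not given here, so these counts are not compared with other exons. An exon of Srpk1, a kinase of splicing factors, passed in another event with fewer reads. The examples that follow were named after their values were seen. Ap2m1 encodes a subunit of the clathrin adaptor AP2, and its 6 nt exon had 1746 reads per library. It was included at 97.4%, 94.9% and 97.1% in the first set and at 88.0%, 84.7% and 87.0% in the second set, 9.9 points in the authors' deposited table. Incenp, of the chromosomal passenger complex, had a 12 nt exon at 12.7%, 13.2% and 9.21% against 5.96%, 6.25% and 3.77%. Git1, an ARF GTPase regulator of focal contacts, had a 27 nt exon at 3.02%, 5.32% and 6.74% against 0.34%, 2.23% and 0.27%. Map2k5, a MAP kinase kinase, was 1 of the 2 that were higher in the second set, with its 27 nt exon at 88.5%, 85.8% and 89.2% in the first set and 94.2%, 98.8% and 96.3% in the second.

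Ptbp1 itself held a member, a 30 nt exon that was included at 100.0% in the 3 libraries of the first set and at 95.5%, 94.5% and 97.3% in the second set. The difference was 4.2 points in the authors' deposited table, under the minimum, with an FDR of 0.02226. Conversely, 13 microexons had a difference of at least 10 points that did not pass the FDR, again with no share over exons of any length given here. Of these, 5 were positive and 8 negative, led by Lias at 31 points and Gon4l at -22.1 points in the authors' deposited table, with FDRs of 0.06457 and 0.1273.

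Of 54 genes on a list of textbook microexon genes, 28 held 38 of the members. Among those members 10 were called, against 9.20% of all microexons and 1.91% of exons of any length, and the list was drawn up with earlier results known. All 10 were higher in the first set, in Agrn, L1cam, Ptprf, Ptprk, Map4k4, Mink1, Tnik, Dnm1 and Ptk2. The median difference over the 38 was 1.6 points, against 0.2 over all microexons and 0.0 over exons of any length. Of the 28 not called, 23 were under 5% and 2 over 95% when all libraries were pooled.

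Src holds an 18 nt exon that neurons include and that PTB proteins are known to repress. In these crypt cells it lay at 3.53%, 2.05% and 4.09% in the first set and 1.53%, 1.60% and 1.76% in the second set, with 293 reads per library. The authors' deposited table gave 1.6 points and an FDR of 0.3254. Mef2d, a transcription factor of muscle and neurons, had a 21 nt exon at 2.78% to 3.48% against 0.79% to 2.78%. Abi1, of the WAVE complex, had a 15 nt exon at 3.32% to 6.95% against 4.07% to 5.18%, and Taf1, of the general transcription factor TFIID, a 6 nt exon at 1.11% to 2.49% against 0.54% to 1.19%. None of these 4 exons exceeded 6.95% in any library.

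Zmynd8, a chromatin reader, had the largest difference of the 28, with its 12 nt exon at 26.9%, 22.7% and 13.9% in the first set and 13.1%, 16.9% and 8.40% in the second set. At 8.4 points and an FDR of 0.07399 in the authors' deposited table it passed neither threshold, and the sets overlapped. The largest negative difference of the 28 was that of Ap1g1, of the clathrin adaptor AP1. Its 9 nt exon lay at 2.44%, 3.19% and 2.28% against 3.88%, 4.33% and 6.53%, -2.3 points in the authors' deposited table. Microexons of Sptan1 (18 nt) and Unc13b (30 nt) were included at 97.1% or more in every library.

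The share called was higher for shorter microexons. From 3 to 9 nt, 6 of 36 exons (16.7%) were called, from 10 to 15 nt 9 of 71 (12.7%), from 16 to 21 nt 12 of 110 (10.9%), from 22 to 27 nt 20 of 224 (8.93%) and from 28 to 30 nt 5 of 124 (4.03%). Exons of 31 to 51 nt were called in 3.54% of cases, with 72.6% of those calls positive, and exons of 101 to 150 nt in 1.51%, with 60.6% positive. For the longest class, 301 nt or more, the share was higher again, at 2.47% (35 of 1417). Among exons of 5% to 95% pooled inclusion, 6 of 10 (60.0%) were called in the shortest class. The next classes, up to 28 to 30 nt, had 33.3%, 41.4%, 32.8% and 16.7%, which is not a steady fall. Median coverage was lower for the shortest class, at 104.7 reads per library, than for the class of 22 to 27 nt, at 195.1 reads. Whether coverage, pooled inclusion or the mapping of very short exons plays a part in the order of the shares was not tested.

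**Figure D3:**
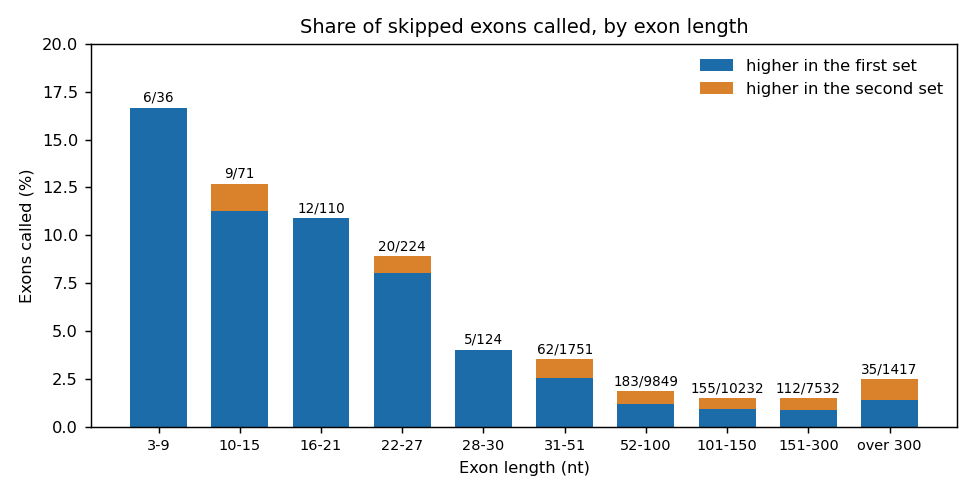
Percentage of skipped exons called (vertical axis) in classes of exon length in nt (horizontal axis), split into higher inclusion in the first set (blue) and in the second set (orange), with the number called and the number of exons above each bar. The bars fall from 16.7% at 3 to 9 nt to 4.03% at 28 to 30 nt and 1.51% at 101 to 150 nt. The last bar, for exons of 301 nt or more, is higher again at 2.47%.

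At the length limit, 3 of 75 exons of 30 nt were called (Ppp3cb, Ptprk and Meaf6) and 1 of 40 exons of 31 nt, in Mafg, at 12 points in the authors' deposited table. At the read minimum, the exon just inside was a 30 nt exon of 9030622O22Rik with 20.0 reads per library, and the exons just outside were those of Usp53 (25 nt, 19.5 reads) and Snx21 (11 nt, 19.3 reads). None of those 3 passed the FDR in the authors' deposited table. Of the 137 microexons under the read minimum, 7 passed the authors' FDR and difference.

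A length divisible by 3 keeps the reading frame whether or not the exon is included. Such a length was found for 47 of the 52 called microexons, 90.4% (exact binomial interval, 79.0% to 96.8%, at 95% confidence), and for 336 of the 513 not called, 65.5%. This interval too treats exons of the same 6 libraries as independent and is a description. Among exons longer than 30 nt the shares were 54.5% of those called and 39.3% of all. Lengths of 24 nt (10 of 53), 27 nt (8 of 91), 12 nt (7 of 27) and 18 nt (7 of 35) gave most called microexons. The 5 called exons of other lengths were those of Rnf185 (19 nt), Trim72 and 2700062C07Rik (23 nt each), Prdm9 (28 nt, untranslated) and Htra2 (29 nt).

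**Figure D4:**
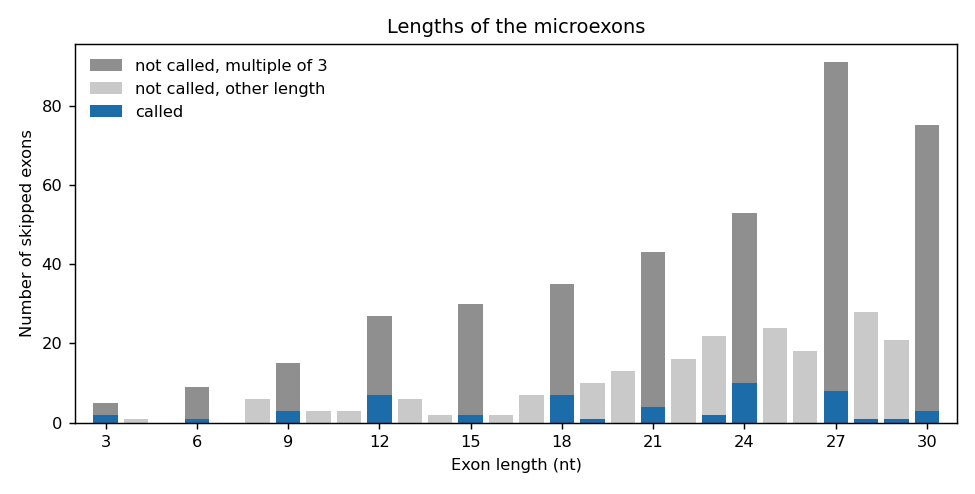
Number of microexons (vertical axis) at each exon length in nt (horizontal axis), with called exons in blue in front of the bar for all exons of that length, which is dark grey for multiples of 3 and light grey for other lengths. Of the 52 called exons, 47 stand on the bars at multiples of 3.

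By GENCODE M21, 48 of the called exons were coding, 1 was coding in a transcript marked for nonsense-mediated decay, 2 lay in non-coding transcripts and 1 was 5′ untranslated. Of the 45 coding ones with a length divisible by 3, 23 began at the first base of a codon, as in Dnm1, Agrn, Mink1 and Psap. Another 11 began 1 base into a codon and 11 began 2 bases into one, as in Arrb1. Among the 297 such exons that were not called, 121 began at the first base, 121 began 1 base in and 55 began 2 bases in.

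Introns beside called microexons had a median length of 896 nt before the exon and 1172 nt after it, against 1386 nt and 1263 nt for microexons not called. For called longer exons the medians were 2274 nt and 2187 nt, against 1725 nt and 1574 nt for all longer exons. The median GC content was 47.0% for called and 48.1% for other microexons.

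The levels of the host genes were read from the authors' gene table, which has 1 FPKM value per group (fragments per kilobase, a level adjusted for transcript length and library size) and no value per library. Its depth is unknown. In bulk samples, fewer cells of a type and less RNA per cell cannot be told apart. Of 487 tested host genes, 4 passed q < 0.05 in the authors' deposited table, and over all 15460 tested genes 0.537% passed. They were Ptbp1, Ager, Sh2d6 and Trim72. Of the 50 host genes of called microexons, Ager and Trim72 passed, and the median log2 fold change was 0.04, against 0.02 over all tested genes.

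Ager was listed at 2.94 FPKM (WT) and 1.19 FPKM (PTBP1_KO), with a log2 fold change of -1.30 and q = 0.0125 in the authors' deposited table. Trim72 was listed at 5.50 FPKM (WT) and 12.5 FPKM (PTBP1_KO), with 1.18 and the same q. Dnm1 was listed at 124.4 FPKM in WT and 110.4 FPKM in PTBP1_KO, Agrn at 38.5 FPKM and 36.9 FPKM and Psap at 122.4 FPKM and 142.2 FPKM, and none of these passed the threshold. These 3 genes were thus well expressed in both groups.

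Regulators of microexons were read from the same table. Ptbp1, the deleted gene, stood at 230.0 FPKM for WT and 122.8 FPKM for PTBP1_KO, and it was the sole call among the 22 tested of 31 listed regulators, at a log2 fold change of -0.91 and q = 0.0125 in the authors' deposited table. Its relative Ptbp2 stood at 19.0 FPKM (WT) and 35.9 FPKM (PTBP1_KO), a log2 fold change of 0.92 with q = 0.156 there. Celf2 stood at 0.85 FPKM and 2.23 FPKM, a log2 fold change of 1.39 with q = 0.466 there. Neither passed the threshold, although both log2 fold changes were at least as large in size as that of Ptbp1. Srrm4, the neuronal activator of microexons, was listed at 0.0031 FPKM and 0.0084 FPKM, and Srrm3 at 0.124 FPKM and 0.121 FPKM, both untested by the authors. Srsf11 and Rnps1, which act with Srrm4 in neurons, were at 138.8 FPKM and 140.9 FPKM and at 55.9 FPKM and 71.9 FPKM. Esrp1, the epithelial splicing factor, was at 38.6 FPKM and 36.7 FPKM. Srrm3 and Srrm4 were thus close to 0 in both groups while Esrp1 was not.

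The labelled cell type was checked against marker genes. The 6 epithelial markers ranged from 6.78 to 1220 FPKM in WT and from 6.78 to 1340 FPKM in PTBP1_KO. Of the neuronal markers, Snap25 was at 0.465 FPKM (WT) and 0.847 FPKM (PTBP1_KO), Tubb3 at 0.306 FPKM and 0.357 FPKM, and Elavl4, Stmn2, Syt1 and Uchl1 at 0.105 FPKM or less in both groups. The 5 enteroendocrine markers summed to 197 FPKM (WT) and 225 FPKM (PTBP1_KO), and none was called. Most of the sum was Chga (72.4 FPKM and 86.1 FPKM) and Chgb (113.7 FPKM and 129.3 FPKM). The other 3 were lower in PTBP1_KO: Insm1 (2.98 FPKM and 2.81 FPKM), Neurod1 (3.62 FPKM and 3.42 FPKM) and Neurog3 (4.29 FPKM and 3.42 FPKM). The 3 immune markers summed to 15.9 FPKM in WT and 25.5 FPKM in PTBP1_KO, and Cd8a was called, from 4.30 to 7.52 FPKM. The 5 muscle and stroma markers summed to 5.45 FPKM and 6.93 FPKM, mostly Vim. The part of endocrine or immune cells in the inclusion levels was not tested.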

How the data were processed

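Polyadenylated RNA of 6 crypt cell libraries, 3 WT and 3 PTBP1_KO by their titles, was prepared with a stranded TruSeq kit, per the labels' protocols. Per the submitters' processing notes, the build was mm10 and the tools were STAR 2.6.1d, Trimmomatic 0.38, bcl2fastq 2.20, Cuffdiff and Cufflinks. The splice junction settings, which decide how reads over a few exon bases are mapped, are not given in the sources used here.

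The skipped exon table, per the file headers, holds inclusion and skipping reads of each library, effective lengths, and a p-value and FDR computed by the authors. Inclusion was recomputed for each library as inclusion reads per inclusion length over the sum of that and skipping reads per skipping length. It came within 0.106 points of the authors' difference over all events that met the read minimum. The table's own inclusion levels, 2 columns, were left out. The sets carry no genotype, so no test was run on them. An exon was called if 1 of its events passed the thresholds and was shown by its called event with most reads. Of the 52 called exons, 8 had more than 1 event (entry) that met the read minimum.

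The authors deposited 1 FPKM value per group for each gene, with a log2 fold change, a p-value and a q-value. Sequences and reading frames came from GENCODE M21. The 565 exons were matched to it, and all 565 had a sequence. One listed marker gene is not reported here. Members, lists and rules were chosen with earlier results of these data known. Exons named were the called exons of up to 30 genes by size of difference, the members of a list of textbook microexon genes, the 5 with most reads and those at the limits. Alternatives covered the FDR, difference, read and length limits, the choice of event, leaving out each library in turn, and the gene threshold. The computation of inclusion was tested on reads simulated with the same formula and lengths. That test checks the code only and cannot show errors in effective lengths or mapping. The computation used pandas 2.3.3, numpy 2.4.6, scipy 1.17.1, matplotlib 3.10.9 and Python 3.11.15.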

Additional observations from a re-analysis of the deposited data

How the results depend on the processing

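Of 52 called microexons, a minimum difference of 20 points left 23, all positive (100.0%), and no minimum difference gave 84, counting an exon of Srpk1 that passed the FDR in an event other than the one with most reads. Raising the length limit to 51 nt gave 114, with 82.5% positive and 77.2% of lengths divisible by 3. These settings admit or remove exons by construction. The other settings (FDR below 0.01, a difference of at least 5 points, 10 or 50 reads, 20 reads in every library, 27 nt, recomputed differences, 1 event per exon) kept the count between 43 and 72. They shared between 43 and 52 exons with the 52, so they could not have reversed the excess of positive calls. Leaving out 1 library at a time, with the authors' FDR kept, gave 46 to 53 called exons. 41 of the 52 were called in each of these 6 settings, and the 11 that were lost at least once (Plekha5, Dnm2, Meaf6, Trappc13, Dctn4, Heatr5a, Mapk8ip3 of 18 nt, Max, Rnf185, Med23 and Asxl2) had differences of at most 13.5 points. Of 34 called exons chosen by the naming rule, 28 stayed called at 50 reads, 23 at 20 points and 31 at an FDR below 0.01. Host genes numbered 16 at an unadjusted p below 0.05 in the authors' deposited table, against 4 at q < 0.05.

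No paired analysis was possible because the columns of the splicing table carry no replicate numbers. Intron motifs, planned with windows of other lengths, were not run, since intron sequence was not used here. Depth limits the called exons with under 20 reads in a library, which are 8 of 52.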
